A study of Caenorhabditis elegans with 32 samples.

Results

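The nuclear genes of the mitochondrial respiratory chain and ATP synthase were followed in adult Caenorhabditis elegans carrying wild-type or mutant lotr-1. Members were taken by gene symbol: the nuo, nduf, sdh, ucr, cyc, cox, asb and asg families, atp-1 to atp-5, and isp-1, gas-1, mev-1, lpd-5 and hpo-18. The rule found 53 genes among the 46926 rows of the deposited count table, and all 53 were tested in every comparison. They comprised 14 genes of complex I, 5 of complex II, 7 of complex III, 2 cytochrome c genes, 7 subunits of complex IV and 10 genes of the ATP synthase. The remaining 8, cox-10 to cox-19 where present, encode assembly factors of complex IV rather than subunits, so in this the set is wider than the complexes. A subunit whose symbol lies outside the rule is not in it. Counts by complex therefore cover the genes found, not whole complexes.

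Nuclear genes encode most subunits of these complexes, and their mRNAs are translated by cytosolic ribosomes before the proteins are imported into mitochondria. Complexes I and II pass electrons to ubiquinone, complex III passes them to cytochrome c, complex IV hands them to oxygen, and the ATP synthase uses the resulting proton gradient to make ATP. A few core subunits are encoded in the mitochondrial genome instead, so each complex other than II needs products of both genomes. In worms several subunits exist as paralogs, one of which, asb-1, is the germline form of the ATP synthase b subunit.

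LOTR-1, a protein of germ granules, carries LOTUS and Tudor domains. All 4 strains carried a 3xFLAG::GFP tag at lotr-1. DUP167 (sam85) held the otherwise intact gene and is called wild type here. DUP207 (sam117) carried a full deletion in frame (ΔLOTR-1), DUP217 (sam113) lacked the LOTUS domain (ΔLOTUS) and DUP185 (sam102) lacked the Tudor domain (ΔTudor). Each genotype was represented by 1 strain, and each library came from a plate-grown population of whole hermaphrodites on day 1 of adulthood at 20 C. Every lysate was divided, with poly(A) RNA sequenced from one portion and from the polysomes that a sucrose gradient separated from the other, giving 4 replicates per strain and fraction and 32 libraries. The study asked what LOTR-1 and its domains do for mRNA levels and translation.

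The libraries held between 27000000 and 40200000 estimated counts. In lysates lotr-1 itself stood at 323, 346, 216 and 111 CPM (counts scaled to the library's total, here after TMM scaling) in the wild type and at 82.3, 84, 46.1 and 29 CPM in ΔLOTR-1. In polysomes it did not separate these strains, with 116, 103, 50.7 and 37.8 CPM in the wild type and 107, 117, 60.4 and 38.3 CPM in the libraries labelled ΔLOTR-1. It therefore checked the lysate labels of ΔLOTR-1 only, and gene totals do not check a domain deletion. Over 15204 genes, same-numbered libraries of different strains deviated together from their group means (r = 0.814 to 0.938 in lysates). Sperm markers summed to 699 and 739 CPM in wild type lysates 1 and 2 and to 4345 and 4983 CPM in lysates 3 and 4, whereas oocyte markers summed to 11490 and 11510 CPM and then to 4760 and 2408 CPM. In RNA from whole animals, fewer cells of a type and less RNA per cell cannot be told apart.

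In the wild type, most of these mRNAs had higher scaled counts in the polysome libraries than in the lysates. The quasi-likelihood test of edgeR, with p-values adjusted by Benjamini and Hochberg's method over 16253 genes, called 37 of the 53 higher in polysomes and 0 lower at an adjusted p under 0.05, where 9.59% of all genes were called higher and 9.72% lower. The median log2 ratio of polysome to lysate was 0.90 for the 53 genes, a 1.87-fold difference after TMM scaling, beside 0.07 for all genes tested. Polysome exceeded lysate in all 16 lysates of the 4 strains for 37 of the 53 genes, against 18.3% of all genes. The printed CPM were scaled by TMM over all rows and the fits by TMM over the genes tested, which puts the fitted log2 ratios of the wild type 0.125 above those of the CPM for every gene. On the fits' scaling, 43 of the 53 genes, and 23.5% of all genes, were higher in all 16 lysates. The ratios depend on this scaling and say nothing of the amount of RNA recovered from each fraction. Scaled by library totals alone, the median of the 53 genes was 0.55, with 28 called higher and 2 lower. In that setting the median of all genes was -0.28, and 3936 of them were called in either direction.

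**Figure D1:**
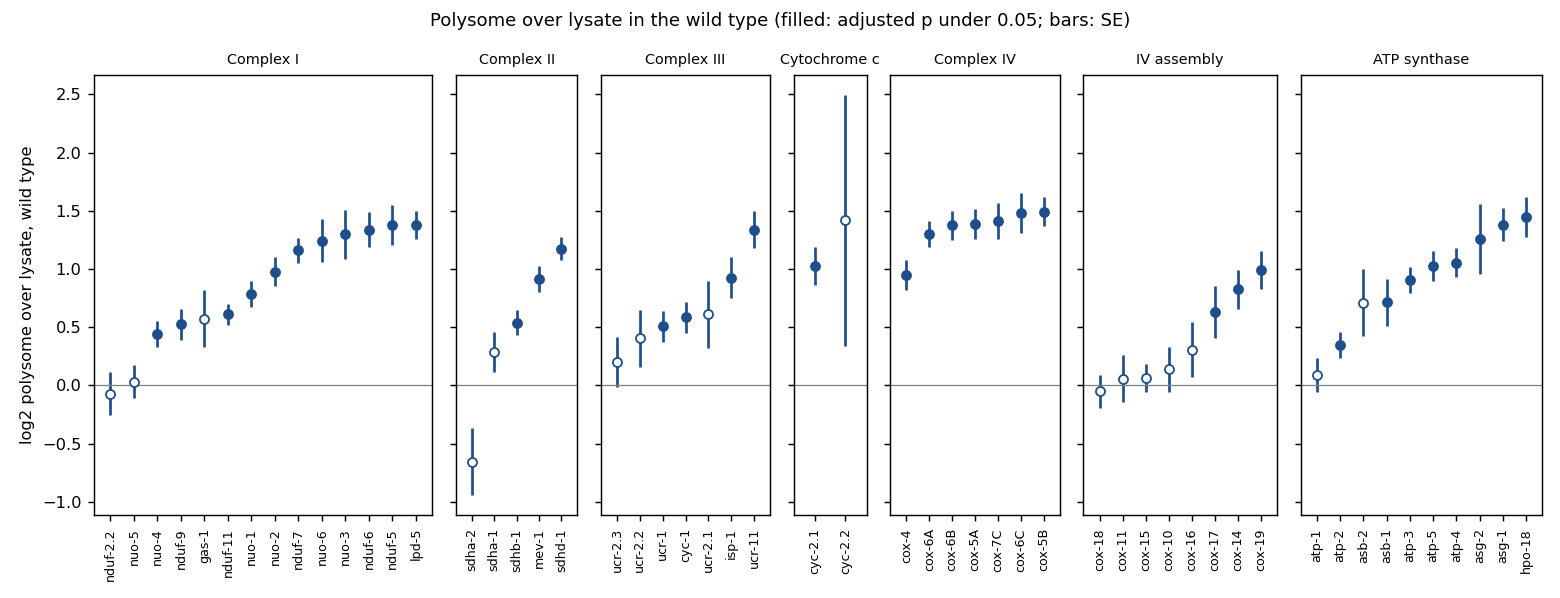
Log2 ratio of polysome to lysate in the wild type (vertical axis) for each of the 53 genes, ordered within complexes (panels). Points are estimates from 4 lysates and 4 polysomes, bars are standard errors, and filled points passed an adjusted p of 0.05; the 7 complex IV subunits all lie between 0.95 and 1.49, while sdha-2 is the lowest gene at -0.65.

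Complex IV, cytochrome c oxidase, stood out for its evenness: all 7 nuclear subunits in the set were higher in polysomes, by log2 ratios of 0.95 to 1.49. For cox-5B (WBGene00000371) the wild type lysates held 369.7, 343, 346 and 429.8 CPM and the polysomes 973, 973, 882 and 1015 CPM. The groups lay far apart, and the log2 ratio was 1.49 (SE 0.12, edgeR adjusted p = 3.26e-09). Next came cox-6C, at 236 ± 50.3 CPM in the lysates and 603 ± 77.2 CPM in the polysomes, a log2 ratio of 1.48 (SE 0.17). The subunit gene cox-7C measured 407 ± 49.9 CPM in the lysates and 989 ± 64.9 CPM in the polysomes, a log2 ratio of 1.41 (SE 0.15). The remaining subunits followed closely behind these. For cox-5A the values were 706 ± 102 CPM in the lysates and 1693 ± 114 CPM in the polysomes, a log2 ratio of 1.39 (SE 0.13). The gene cox-6B held 504 ± 64.8 CPM in the lysates and 1202 ± 124 CPM in the polysomes, a log2 ratio of 1.38 (SE 0.12). A similar ratio was seen for cox-6A, with 265 ± 21.4 CPM in the lysates and 599.6 ± 36.8 CPM in the polysomes, a log2 ratio of 1.3 (SE 0.11). The lowest of the 7, and the member farthest from the complex's median, was cox-4. It measured 634 ± 72.5 CPM in the lysates and 1125 ± 88 CPM in the polysomes, a log2 ratio of 0.95 (SE 0.13).

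The 8 assembly factors of complex IV behaved differently from the subunits they serve, and 3 of the 8 were called higher in polysomes. Their median log2 ratio was 0.22, beside 1.39 for the subunits. The copper-related factor cox-19 held 14.2 ± 1.22 CPM in the lysates and 25.7 ± 2.49 CPM in the polysomes, a log2 ratio of 0.99 (SE 0.17, adjusted p = 7.7e-05). For cox-14 the values were 52.6 ± 2.56 CPM in the lysates and 85 ± 9.01 CPM in the polysomes, a log2 ratio of 0.83 (SE 0.17, adjusted p = 0.000791). The copper chaperone cox-17, known as such from yeast and human, measured 11.8 ± 1.71 CPM in the lysates and 16.7 ± 4.61 CPM in the polysomes, a log2 ratio of 0.63 (SE 0.22, adjusted p = 0.0464). Its call was the least secure of the 3, with a log2 ratio down to 0.06 among the alternatives tried. The other 5 factors, cox-10 and cox-15 of heme A synthesis, cox-11 of copper delivery, cox-16 and the insertase cox-18, had log2 ratios of -0.05 to 0.31 and none passed the test. As the most abundantly counted of these, cox-15 held 79.2 ± 3.43 CPM in lysates and 76.1 ± 8.77 CPM in polysomes, ranges that overlapped. For cox-10 the corresponding values were 14.4 ± 2.54 CPM and 14.5 ± 1.53 CPM. On the fits' scaling the log2 ratios of cox-15 and cox-10 were 0.06 and 0.14.

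In the ATP synthase 8 of 10 genes were higher in polysomes, and the 2 that were not include the catalytic core's alpha subunit. The epsilon subunit gene hpo-18 had the highest ratio, with 142 ± 21.3 CPM in the lysates and 358 ± 56.3 CPM in the polysomes, a log2 ratio of 1.45 (SE 0.17). The g subunit gene asg-1 measured 219 ± 31.4 CPM in the lysates and 526 ± 89.1 CPM in the polysomes, a log2 ratio of 1.38 (SE 0.14), and its paralog asg-2 147 ± 54.6 CPM in the lysates and 320.0 ± 84.8 CPM in the polysomes, a log2 ratio of 1.26 (SE 0.30). The stalk and coupling genes followed. For atp-4 the wild type lysates held 386, 382, 387 and 511 CPM and the polysomes 828, 742, 725 and 883 CPM, a log2 ratio of 1.06 (SE 0.12). The d subunit gene atp-5 measured 803 ± 107 CPM in the lysates and 1497 ± 62.7 CPM in the polysomes, a log2 ratio of 1.02 (SE 0.13). The gene atp-3, for the oligomycin sensitivity-conferring subunit, measured 689.7 ± 54 CPM in the lysates and 1185 ± 59.1 CPM in the polysomes, a log2 ratio of 0.90 (SE 0.11). By contrast, the genes of the alpha and beta subunits, which form the catalytic head, lay near equality. For atp-1 (alpha) the lysates held 2136, 2432, 2948 and 2583 CPM and the polysomes 2606, 2451, 2589 and 2216 CPM, groups that overlapped, and the CPM means differ in the opposite direction to the fitted log2 ratio, which is on the other scaling (0.09, SE 0.15, edgeR adjusted p = 0.786). For atp-2 (beta) the lysates held 2607, 2608, 3166 and 2812 CPM and the polysomes 3676, 3128, 3231 and 3033 CPM. Its log2 ratio of 0.35 (SE 0.11, edgeR adjusted p = 0.0298) fell to -0.00364 when libraries were scaled by their totals alone. The b subunit paralogs were intermediate: asb-1 measured 295 ± 38.4 CPM in the lysates and 449 ± 134 CPM in the polysomes, a log2 ratio of 0.71 (SE 0.20), and asb-2 449 ± 136 CPM in the lysates and 669.9 ± 98.1 CPM in the polysomes, a log2 ratio of 0.71 (SE 0.29, adjusted p = 0.0863). With the lysate as a block, asb-2 was called too, at 0.74 (adjusted p = 9.65e-07).

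Complex I, the NADH dehydrogenase, had 11 of 14 genes higher in polysomes, over the widest range of any complex with more than 5 genes. At the top were the accessory subunit genes lpd-5, with 152 ± 22.5 CPM in the lysates and 364 ± 31.3 CPM in the polysomes, a log2 ratio of 1.38 (SE 0.12), and nduf-5, with 96.9 ± 21.2 CPM in the lysates and 230.4 ± 24.4 CPM in the polysomes, a log2 ratio of 1.38 (SE 0.17). Close to these lay nduf-6, at 100.0 ± 5.58 CPM in the lysates and 231 ± 19.7 CPM in the polysomes, a log2 ratio of 1.34 (SE 0.15), and nuo-3, at 56.1 ± 13.6 CPM in the lysates and 126 ± 25.2 CPM in the polysomes, a log2 ratio of 1.3 (SE 0.21). All 4 encode small accessory subunits. The gene nuo-6 measured 171 ± 29.3 CPM in the lysates and 369.9 ± 33.3 CPM in the polysomes, a log2 ratio of 1.25 (SE 0.18). The iron-sulfur subunit gene nduf-7 measured 202 ± 27.5 CPM in the lysates and 414 ± 22.3 CPM in the polysomes, a log2 ratio of 1.16 (SE 0.11). For nuo-2, another core subunit, the values were 181 ± 22 CPM in the lysates and 326 ± 28.8 CPM in the polysomes, a log2 ratio of 0.98 (SE 0.12). The flavoprotein gene nuo-1 and the accessory genes nduf-11, nduf-9 and nuo-4 had smaller ratios. Lysates held 347, 362, 423 and 449 CPM of nuo-1 and polysomes 641, 678, 592 and 587 CPM, with no overlap (log2 ratio 0.78, SE 0.11, edgeR adjusted p = 8.13e-06). The gene nduf-11 measured 291 ± 2.83 CPM in the lysates and 409 ± 59.4 CPM in the polysomes, a log2 ratio of 0.61 (SE 0.09). For nduf-9 the values were 196 ± 25.8 CPM in the lysates and 258 ± 13.6 CPM in the polysomes, a log2 ratio of 0.52 (SE 0.14), and for nuo-4 209 ± 17.3 CPM in the lysates and 259.9 ± 7.42 CPM in the polysomes, a log2 ratio of 0.44 (SE 0.11). At the bottom lay large core subunits. The gene nuo-5 had a log2 ratio of 0.03 (SE 0.14) and nduf-2.2 one of -0.07 (SE 0.19), and neither was called. The paralog of nduf-2.2, gas-1, was called only with the lysate as a block, at 0.60 (SE 0.11, adjusted p = 0.000102), beside 0.57 (adjusted p = 0.101) without it.

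In complex II, succinate dehydrogenase, the genes differed by subunit. The membrane anchor genes sdhd-1, with 131 ± 7.71 CPM in the lysates and 272 ± 32.6 CPM in the polysomes, a log2 ratio of 1.18 (SE 0.10), and mev-1, with 163 ± 16.3 CPM in the lysates and 282 ± 23.7 CPM in the polysomes, a log2 ratio of 0.91 (SE 0.11), were clearly higher in polysomes. The iron-sulfur subunit gene sdhb-1 rose less, from 231 ± 12.4 CPM to 308 ± 18.9 CPM (log2 ratio 0.54, SE 0.11, edgeR adjusted p = 0.000654). The flavoprotein paralogs were the exceptions. For sdha-1 the log2 ratio was 0.29 (SE 0.17, edgeR adjusted p = 0.274). For sdha-2 the lysates held 166, 169.9, 139 and 122 CPM and the polysomes 122, 96.9, 73.1 and 59 CPM. The polysome was below its own lysate at every number and in all 16 lysates of the study, which held for no other member. The log2 ratio of sdha-2 was -0.65 (SE 0.29, edgeR adjusted p = 0.119), and with the lysate as a block it was -0.68 (SE 0.17, adjusted p = 0.00284).

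In complex III, the cytochrome bc1 complex, 4 of 7 genes were higher in polysomes. The small subunit gene ucr-11 had the highest ratio, with 87.9 ± 15.2 CPM in the lysates and 204 ± 33.7 CPM in the polysomes, a log2 ratio of 1.34 (SE 0.16), followed by the Rieske iron-sulfur protein gene isp-1, with 416 ± 68 CPM in the lysates and 722 ± 45.1 CPM in the polysomes, a log2 ratio of 0.92 (SE 0.18). The cytochrome c1 gene cyc-1 measured 378 ± 55.7 CPM in the lysates and 519 ± 41.8 CPM in the polysomes, a log2 ratio of 0.58 (SE 0.14), and the core protein gene ucr-1 460.5 ± 50.1 CPM in the lysates and 599 ± 8.09 CPM in the polysomes, a log2 ratio of 0.51 (SE 0.13). The other core protein genes, ucr-2.1, ucr-2.2 and ucr-2.3, had log2 ratios of 0.61, 0.41 and 0.20 and none was called. With the lysate as a block ucr-2.1 and ucr-2.2 passed the edgeR test, at adjusted p = 8.57e-05 and 0.0069. Cytochrome c itself has a pair of genes. The main form, cyc-2.1, held 579.8, 592, 698 and 829 CPM in lysates and 1253, 1191, 1237 and 1354 CPM in polysomes, a log2 ratio of 1.03 (SE 0.16, edgeR adjusted p = 3.31e-05). The counts of cyc-2.2 ran from 5.43 to 65.3 CPM among the lysates and from 16.8 to 150.5 CPM among the polysomes. This spread followed the replicate numbers, and the log2 ratio was 1.42 (SE 1.08, edgeR adjusted p = 0.424) without the block and 1.5 (SE 0.15, adjusted p = 1.11e-07) with it.

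Similar numbers of genes were called in the mutants. In the libraries labelled ΔLOTR-1, 39 of the 53 genes were higher in polysomes, in ΔLOTUS 37 and in ΔTudor 39, with 0 lower, where 11.6%, 11.8% and 11.7% of all genes were called higher and 11.7%, 11.9% and 12.3% lower. Of the 53, 35 were called in all 4 strains, 14 in none and 4 in some: asb-2 and gas-1 missed the threshold in the wild type, and atp-2 and cox-17 in ΔLOTUS. Median log2 ratios were 1.03, 1.03 and 1.01 in the mutants. At least 2-fold higher, a log2 ratio of 1 that lay close to the medians, were 21 genes in the wild type and 27 in each mutant. The share of all genes at this cut was not counted. Whether strains differ in this ratio is given with translational efficiency, where no member passed the test. With the lysate as a block, 42 genes in the wild type and 43 to 44 in the mutants were called higher and 1, sdha-2, lower, beside 29% and 30.5% to 31.4% of all genes higher and 26.6% and 27.8% to 28.5% lower. Some wild type calls did not hold in all 18 alternatives tried. With the direction kept, that of cox-17 was lost in 14 of them, that of atp-2 in 11, that of asb-1 in 8, that of nduf-9 in 6 and those of ucr-1 and nuo-4 in 4 each. Those of cyc-1 and sdhb-1 were lost in 3 each and those of asg-2 and nduf-11 in 1 each. The lowest log2 ratios among the alternatives were 0.24 for asb-1, 0.04 for nduf-9, 0.03 for ucr-1, 0.04 for cyc-1 and 0.06 for sdhb-1.

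Other mitochondrial and ribosomal genes give the scale of these values. In the wild type 73 of 79 cytosolic ribosomal protein genes were higher in polysomes and 1 was lower, with a median log2 ratio of 1.19. Mitochondrial ribosomal protein genes had a median of 0.38, with 37 of 67 higher and 1 lower, and genes of protein import into mitochondria one of 0.61, with 6 of 8 higher. The tricarboxylic acid cycle (2 of 14 higher, median 0.02), ubiquinone synthesis (1 of 8 higher and 1 lower, median 0.02) and other respiratory chain factors (1 of 9 higher and 3 lower, median 0.01) lay near 0. The mitochondrial genome's own mRNAs had a median of 0.05, with 2 of 10 higher and 2 lower. Scaling moved all these ratios together: with library totals the median of all genes was -0.28. In the authors' replicate-adjusted table the medians were -0.38 for all genes and 0.43 for the 53 genes. There limma called 30 of the 53 higher and 8 lower, and 8439 of all genes in either direction. Relative to the median of all genes, that of the 53 genes was higher by 0.81 to 0.84 on the log2 scale in the wild type in each of these settings. Without the filter on low counts it was higher by 0.78.

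In lysates the respiratory chain mRNAs were slightly lower in all 3 mutants. Their summed level in the wild type was 16100, 16410, 18590 and 19600 CPM at numbers 1 to 4. In ΔLOTR-1 it was 13650, 15490, 16070 and 17600 CPM, in ΔLOTUS 12810, 14460, 15030 and 17460 CPM, and in ΔTudor 13570, 12700, 15510 and 17280 CPM. The groups overlapped, but every mutant lysate was below the wild type lysate of its own number, at 0.848 to 0.944 of it in ΔLOTR-1, 0.795 to 0.891 in ΔLOTUS and 0.774 to 0.881 in ΔTudor. All 3 mutants were set against one wild type group, so their similarity is not independent evidence.

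**Figure D2:**
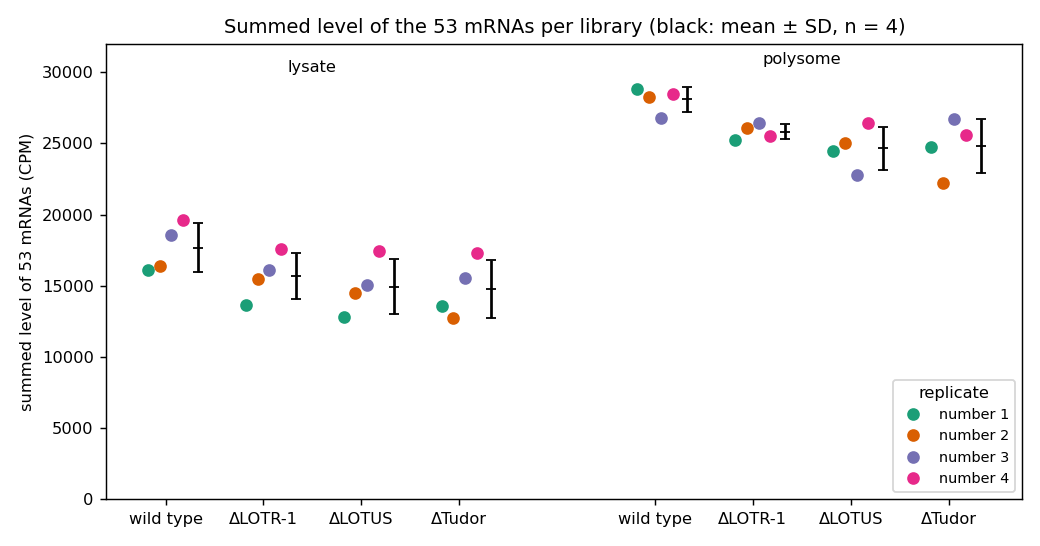
Summed level of the 53 mRNAs (vertical axis, CPM, from 0) in each of the 32 libraries, by strain and fraction, coloured by replicate number; black marks give mean ± SD of 4 libraries. Lysates range from 12700 to 19600 CPM and polysomes from 22220 to 28840 CPM, and within each number the mutants lie below the wild type at this scaling.

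Without a term for the replicate number, edgeR's quasi-likelihood test called 0 of the 53 genes in any mutant, where 0.0816%, 0.0816% and 0.0188% of all genes were called lower and 0.188%, 0.0627% and 0.0565% higher. At an unadjusted p under 0.05 there were 7, 18 and 16 members in ΔLOTR-1, ΔLOTUS and ΔTudor, counts given without the share of all genes. DESeq2 called 1, 6 and 14 members, all lower, and 126, 183 and 136 of all genes in either direction. With the replicate number as a block, edgeR called 21 members lower in ΔLOTR-1, and 41 and 40 in ΔLOTUS and ΔTudor, and none higher, where 5.36%, 11.1% and 7.89% of all genes were called lower and 2.46%, 9.47% and 5.7% higher. The median log2 changes without the block were -0.20, -0.28 and -0.29, that is 0.871, 0.824 and 0.821 of the wild type, and those of all genes -0.01, -0.02 and -0.00. The blocked counts varied with the libraries included. Without number 3 the counts were 0, 9 and 0, without number 1 they were 0, 14 and 14, without number 4 they were 2, 35 and 37, and without number 2 they were 18, 35 and 27. Calls among all genes, in either direction, varied as well, from 1246, 3277 and 2166 with all numbers. They were 175, 770 and 34 without number 3 and 96, 1433 and 595 without number 1. Without number 4 they were 345, 2153 and 1859, and without number 2 they were 755, 3373 and 999. The blocked medians of the members moved less, from -0.19, -0.28 and -0.29 with all numbers to between -0.21 and -0.16, -0.27 and -0.24, and -0.30 and -0.24 with 1 number left out. With library totals in place of the default scaling the median of all genes moved to 0.10, 0.09 and 0.14 and that of the members to -0.09, -0.18 and -0.14. Library totals with the block, a setting added after seeing the data, gave 7, 27 and 17 members called. Of all genes 1158, 3551 and 2589 were called in that setting, in either direction. Members were lower at all 4 numbers in 36, 48 and 46 cases, beside 15.2%, 17.4% and 17.3% of all genes.

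**Figure D3:**
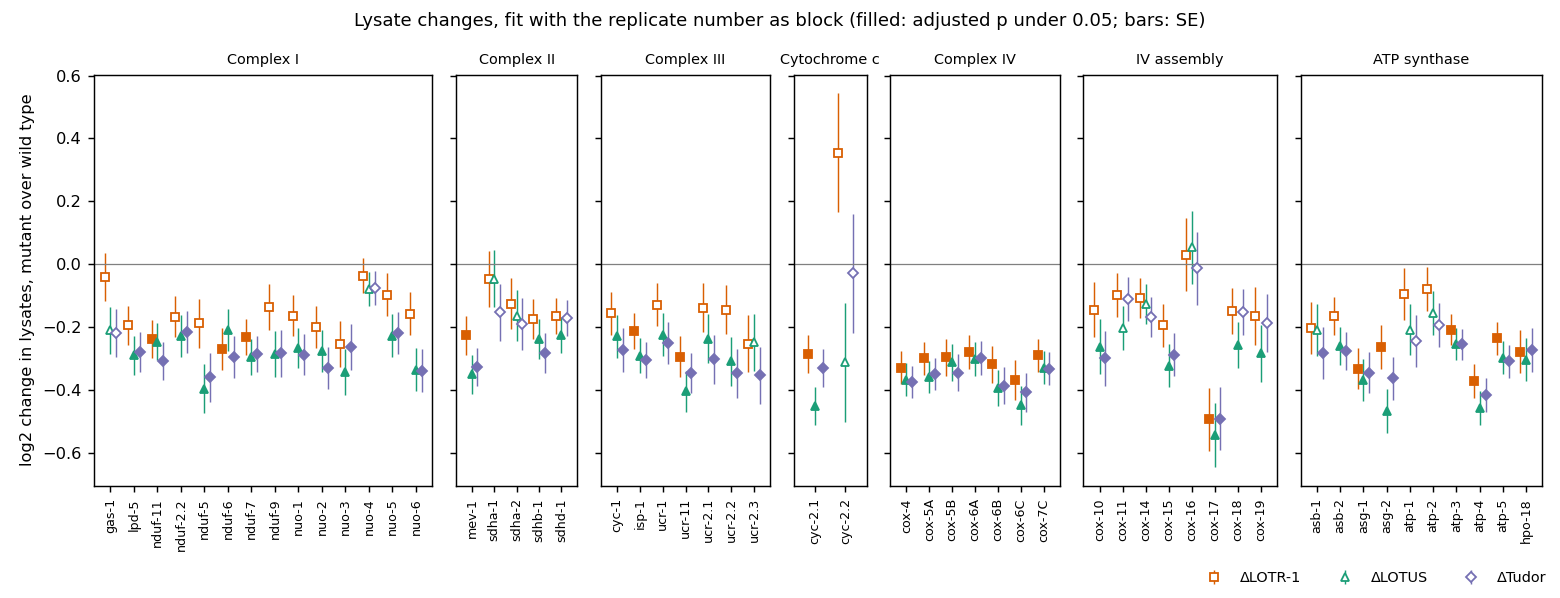
Log2 change in lysates from the wild type (vertical axis) of each of the 53 genes in ΔLOTR-1 (squares), ΔLOTUS (triangles) and ΔTudor (diamonds), estimated with a block for replicate number, by complex. Bars are standard errors and filled symbols passed an adjusted p of 0.05; all 7 complex IV subunits are filled in all 3 mutants, between -0.28 and -0.45.

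With the block, all 7 complex IV subunits fell in each mutant, by 0.28 to 0.37 on the log2 scale in ΔLOTR-1, 0.30 to 0.45 in ΔLOTUS and 0.30 to 0.41 in ΔTudor. For cox-6C the wild type lysates held 212, 199.8, 223 and 310.5 CPM, ΔLOTR-1 164, 161, 186 and 224 CPM, ΔLOTUS 143, 170.4, 165 and 221 CPM and ΔTudor 164, 148, 174 and 233 CPM. Number 4 was the highest in every strain, and the groups overlapped. The blocked log2 changes of cox-6C were -0.37 for ΔLOTR-1, -0.45 for ΔLOTUS and -0.41 for ΔTudor (edgeR adjusted p = 0.0048, 0.000815 and 0.0023). Those of cox-4 were -0.33 for ΔLOTR-1, -0.37 for ΔLOTUS and -0.37 for ΔTudor (edgeR adjusted p = 0.00293, 0.000836 and 0.00187), and those of cox-5A -0.30 for ΔLOTR-1, -0.36 for ΔLOTUS and -0.35 for ΔTudor (edgeR adjusted p = 0.00526, 0.000876 and 0.0023). Of the assembly factors 1, 5 and 3 of 8 fell. The largest change among all members was in the copper chaperone gene cox-17, a gene of low count. Its wild type lysates held 13.8, 10.7, 10.1 and 12.6 CPM, ΔLOTR-1 10, 8.67, 7.53 and 7.59 CPM, ΔLOTUS 9.06, 10.1, 6.15 and 7.74 CPM and ΔTudor 9.38, 9.08, 7.15 and 8.3 CPM. All ΔLOTR-1 and ΔTudor values were below the lowest wild type value, and 1 ΔLOTUS value was not. The blocked log2 changes of cox-17 were -0.49 for ΔLOTR-1, -0.54 for ΔLOTUS and -0.49 for ΔTudor (SE 0.10 each, edgeR adjusted p = 0.0122, 0.00244 and 0.00719).

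The ATP synthase had 6, 7 and 8 of its 10 genes lower with the block in ΔLOTR-1, ΔLOTUS and ΔTudor. The coupling subunit gene atp-4 (WBGene00020275) had the smallest p of all members in each mutant. Its wild type lysates held 386, 382, 387 and 511 CPM, ΔLOTR-1 307, 318, 302 and 365 CPM, ΔLOTUS 277, 314, 279 and 356 CPM and ΔTudor 302, 291, 301 and 363 CPM. Every mutant value lay below every wild type value. The blocked log2 changes were -0.37 for ΔLOTR-1, -0.46 for ΔLOTUS and -0.41 for ΔTudor (SE 0.05 each, edgeR adjusted p = 0.00174, 0.000291 and 0.0016). Such separation was seen for 6, 4 and 8 members, against 1.73%, 2.07% and 1.97% of all genes, and atp-4, cox-6B and nduf-11 showed it in all 3 mutants. On the scaling of the lysate fits it was seen for 4, 7 and 7 members, again with these 3 genes in all 3 mutants. The share of all genes on that scaling was not counted. The g subunit paralogs fell as well, asg-1 by 0.33 for ΔLOTR-1, 0.37 for ΔLOTUS and 0.34 for ΔTudor and asg-2 by 0.26 for ΔLOTR-1, 0.47 for ΔLOTUS and 0.36 for ΔTudor. The catalytic head did not pass the test: the blocked changes of atp-1 were -0.09 for ΔLOTR-1, -0.21 for ΔLOTUS and -0.24 for ΔTudor, and those of atp-2 -0.08 for ΔLOTR-1, -0.16 for ΔLOTUS and -0.19 for ΔTudor (edgeR adjusted p = 0.535, 0.133 and 0.0825).

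Complex I differed most in count, with 3 of 14 genes lower in ΔLOTR-1 and 12 of 14 in ΔLOTUS and in ΔTudor with the block. The 3 were nduf-6, nduf-7 and nduf-11. For nduf-11 the wild type lysates held 291, 294, 287 and 289.8 CPM, ΔLOTR-1 222, 267, 241 and 267 CPM, ΔLOTUS 236, 256, 232 and 272 CPM and ΔTudor 232, 224, 235 and 257 CPM. No mutant value reached the wild type range, and the blocked log2 changes were -0.24 for ΔLOTR-1, -0.25 for ΔLOTUS and -0.31 for ΔTudor (edgeR adjusted p = 0.0308, 0.011 and 0.00576). At the other end, nuo-4 had blocked changes of -0.04 for ΔLOTR-1, -0.08 for ΔLOTUS and -0.08 for ΔTudor and passed in none, as did gas-1, with -0.04 for ΔLOTR-1, -0.21 for ΔLOTUS and -0.22 for ΔTudor. The difference in count does not show a difference between strains, and no complex I gene was called between ΔLOTR-1 and the other mutants.

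In complex III 2, 6 and 7 of 7 genes fell with the block, ucr-11 and isp-1 in all 3 mutants. The changes of ucr-11 were -0.29 for ΔLOTR-1, -0.40 for ΔLOTUS and -0.35 for ΔTudor (edgeR adjusted p = 0.0168, 0.00127 and 0.00468), and those of isp-1 -0.21 for ΔLOTR-1, -0.29 for ΔLOTUS and -0.30 for ΔTudor (edgeR adjusted p = 0.0364, 0.00321 and 0.00457). In complex II 1, 3 and 2 of 5 genes fell. Of these mev-1, the cytochrome b subunit gene, passed in each mutant, with -0.23 for ΔLOTR-1, -0.35 for ΔLOTUS and -0.33 for ΔTudor (edgeR adjusted p = 0.0408, 0.0019 and 0.00493). The flavoprotein genes sdha-1 and sdha-2 passed in none. The cytochrome c gene cyc-2.1 held 579.8 to 829 CPM in the wild type, 503 to 613 CPM in ΔLOTR-1, 424 to 592 CPM in ΔLOTUS and 458 to 631 CPM in ΔTudor. The ranges overlapped, and the blocked changes were -0.29 for ΔLOTR-1, -0.45 for ΔLOTUS and -0.33 for ΔTudor (edgeR adjusted p = 0.0143, 0.000657 and 0.00421). In all, 21 members were called lower in each of the 3 mutants and 10 in none: atp-1, atp-2, cox-11, cox-14, cox-16, cyc-2.2, gas-1, nuo-4, sdha-1 and sdha-2.

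Ribosomal genes moved in the same libraries. With the block 71, 76 and 77 of 79 cytosolic ribosomal protein genes were lower in ΔLOTR-1, ΔLOTUS and ΔTudor and 1, 0 and 1 higher, with median blocked changes of -0.33, -0.39 and -0.40. Their summed level was 143200 to 186800 CPM in wild type lysates and 101900 to 150900 CPM in the mutants. Of 67 mitochondrial ribosomal protein genes 28, 42 and 45 were lower. Fewer genes were called among the rest of mitochondrial metabolism: 0, 4 and 4 of 14 tricarboxylic acid cycle genes, 1, 2 and 1 of 8 ubiquinone synthesis genes and 2, 3 and 3 of 9 other chain factors were lower, while each of the latter lists had 0, 1 and 1 higher. Of 8 import genes 4 were lower and 1 higher in each mutant, and 0, 1 and 1 of 3 ADP/ATP carrier genes were lower. Over the 12 mutant lysates the summed CPM of the carriers was 0.797 to 0.989 of the wild type lysate of the same number and that of the other chain factors 0.838 to 0.949, beside 0.774 to 0.944 for the 53 genes. Of the 10 mRNAs of the mitochondrial genome 0, 1 and 0 were lower, and of 10 genes of the mitochondrial stress response 0 were lower and 1, 2 and 1 higher. Among markers of cell types, 0 of 33 sperm genes and 0 of 7 oocyte genes tested were called in any mutant with the block, and 0, 3 and 0 of 6 hypodermis genes were lower. Of 7 germ line genes 1, 1 and 2 were lower, and their sum was 0.828 to 0.961 of the wild type of the same number in ΔLOTR-1, 0.907 to 1.03 in ΔLOTUS and 0.851 to 0.98 in ΔTudor. Of 9 intestine genes 0, 1 and 0 were lower. Their sum was 0.842 to 1.58 of the wild type of the same number in ΔLOTR-1, 0.93 to 2.44 in ΔLOTUS and 0.76 to 1.8 in ΔTudor. The highest ratio in each mutant was at number 4, where the wild type sum was lowest, at 10790 CPM. Muscle had 0, 1 and 0 of 6 genes higher, neurons 0, 1 and 1 of 6 and embryos 0, 1 and 0 of 5, with none lower. Hypodermis markers summed to 1520 to 2957 CPM in the wild type, 1308 to 2889 CPM in ΔLOTR-1, 1173 to 2268 CPM in ΔLOTUS and 1062 to 2274 CPM in ΔTudor, none of the 6 being at 0. The part of ribosomal, hypodermis, germ line or intestine genes in the result was not tested.

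In polysomes no member was called in any mutant, with or without the block. The summed level of the 53 mRNAs was 28840, 28260, 26820 and 28470 CPM in the wild type. In the libraries labelled ΔLOTR-1 it was 25220, 26090, 26410 and 25560 CPM, in ΔLOTUS 24490, 25000, 22760 and 26420 CPM, and in ΔTudor 24720, 22220, 26720 and 25580 CPM. Every mutant polysome was below every wild type polysome in this sum, and the comparisons again share their controls. On the scaling of the polysome fits the groups overlapped, with a lowest wild type sum of 24940 CPM and highest mutant sums of 25230, 25350 and 25990 CPM. Median log2 changes were -0.07, -0.17 and -0.14, beside -0.01, 0.01 and 0.02 for all genes. By edgeR 1, 5 and 2 members had an unadjusted p under 0.05 without the block and 5, 16 and 11 with it, counts given without the share of all genes. DESeq2 with the block called 4 members lower in ΔLOTUS and 0 in the others. It called 131, 464 and 87 of all genes in ΔLOTR-1, ΔLOTUS and ΔTudor, in either direction. Of all genes, edgeR called 0.0325%, 0.039% and 0.0195% lower without the block and 0.13%, 0.637% and 0.0325% with it. The shares called higher were 0.189%, 0.0195% and 0.078% without it and 0.501%, 0.416% and 0.195% with it. With library totals the median changes were -0.00, -0.06 and -0.04, and with the block 0.01, -0.06 and -0.05, with 25, 45 and 43 of 53 genes below 0. In the authors' replicate-adjusted table they were 0.04, -0.14 and -0.12, with 18, 51 and 50 genes below 0, so the direction in ΔLOTR-1 turned with the scaling. Members lower at all 4 numbers were 15, 31 and 20, beside 9.19%, 11.1% and 8.72% of all genes.

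The members nearest to the threshold in polysomes were again of complex IV and the ATP synthase. For cox-6C the wild type polysomes held 578, 538, 580.4 and 715 CPM, the libraries labelled ΔLOTR-1 479.8, 501, 456 and 543 CPM, ΔLOTUS 434, 463, 476 and 534 CPM and ΔTudor 452, 443, 502 and 593 CPM. In CPM ΔLOTUS alone lay wholly below the wild type, and the blocked log2 changes were -0.24, -0.33 and -0.25 (edgeR adjusted p = 0.477, 0.0667 and 0.556). The polysomes held 828, 742, 725 and 883 CPM of atp-4 in the wild type and 674, 709, 639 and 681 CPM in the libraries labelled ΔLOTR-1, 599, 652, 591 and 698 CPM in ΔLOTUS and 636, 561, 661 and 737 CPM in ΔTudor. The first 2 mutants did not overlap the wild type in CPM. On the scaling of the polysome fits, neither cox-6C nor atp-4 separated a mutant from the wild type. Its blocked changes were -0.19, -0.32 and -0.26 (edgeR adjusted p = 0.661, 0.0948 and 0.568). Those of asg-2 were -0.11, -0.36 and -0.25 (edgeR adjusted p = 0.821, 0.0753 and 0.627). In ΔLOTR-1-labelled libraries the smallest p-values after cox-6C belonged to cox-6A and cox-6B, with blocked changes of -0.24 and -0.26 (edgeR adjusted p = 0.491 and 0.556).

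Translational efficiency, the change of the polysome to lysate ratio between strains tested as an interaction, gave no call. By edgeR 0 of the 53 genes passed in any mutant with or without the lysate as a block, and DESeq2 called 0 as well. At an unadjusted p under 0.05 there were 0, 0 and 0 members without the block and 0, 1 and 0 with it. Of all 16253 genes 0% were called in either direction without the block; with it 0.0554%, 0% and 0.00615% were called higher and 0% lower. The estimates leaned one way: 50, 48 and 49 of 53 were above 0 in ΔLOTR-1, ΔLOTUS and ΔTudor, with medians of 0.10, 0.08 and 0.11 beside 0.01, 0.04 and 0.02 for all genes. Under library totals with the block, 7, 4 and 5 were below 0. The cytosolic ribosomal protein genes had a median of 0.15 in ΔLOTUS, also with 0 called.

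**Figure D4:**
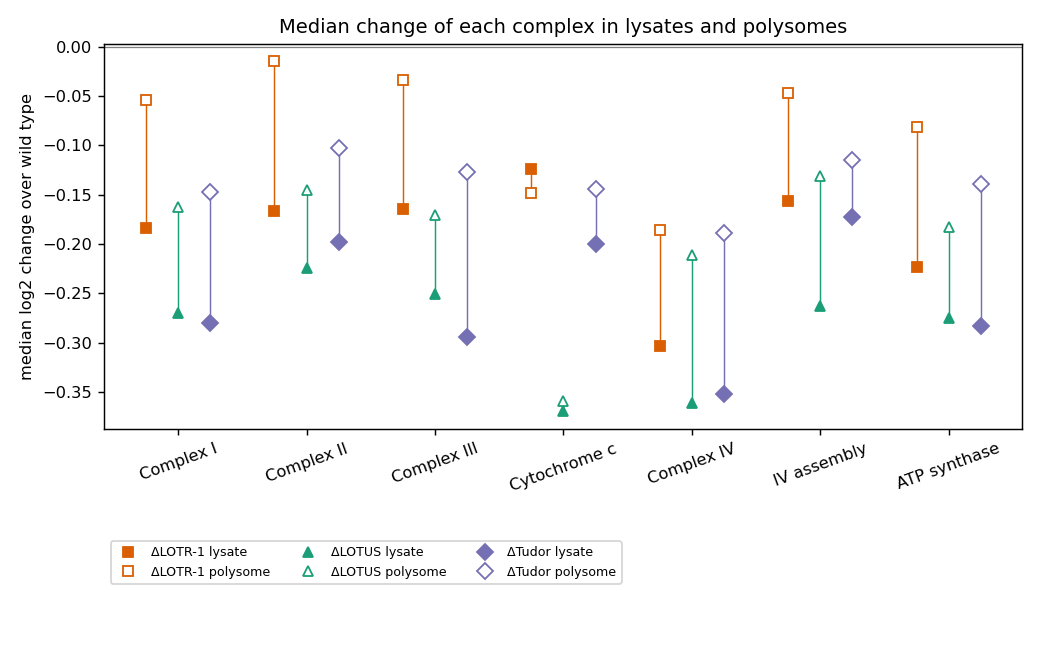
Median log2 change from the wild type (vertical axis) of the genes of each complex in lysates (filled) and polysomes (open), for the 3 mutants, from the fit without the block. In every complex but cytochrome c in ΔLOTR-1, the polysome median lies nearer to 0 than the lysate median; no test of this difference was passed by any gene.

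The gene with the smallest p for translational efficiency was nuo-6, a complex I subunit. Its lysates held 147, 147, 182 and 207 CPM in the wild type and 113, 129, 138 and 168 CPM in ΔLOTUS. Its polysomes held 332, 364, 371 and 413 CPM in the wild type and 295, 353, 367 and 436 CPM in ΔLOTUS. Lysates of ΔLOTUS were lower at every number while polysomes were not, and the interaction was 0.29 on the log2 scale (SE 0.10, unadjusted p = 0.0126 and adjusted p = 0.859 in edgeR with the block). The next smallest p-values in ΔLOTUS were those of cox-7C, at 0.23 (SE 0.12), and mev-1, at 0.22 (SE 0.12), both with an edgeR adjusted p of 1. In ΔLOTR-1 cox-4 and atp-5 led, at 0.23 (SE 0.11) and 0.19 (SE 0.10), and in ΔTudor nuo-6 and cox-4 were followed by cox-10, at 0.20 (SE 0.13). All of these had an edgeR adjusted p of 1.

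Between mutants no member was called in any of 6 comparisons, in lysates or polysomes, with or without the block in edgeR. Without the block 0 members had an unadjusted p under 0.05 in any of them. With it there were 6 between ΔLOTUS and ΔLOTR-1 lysates, 4 between ΔTudor and ΔLOTR-1 lysates, 4 between ΔLOTUS and ΔLOTR-1 polysomes and 0 in the other 3. Of all genes, 0.659%, 0.307% and 0.452% were called lower with the block in the lysates of ΔLOTUS against ΔLOTR-1, ΔTudor against ΔLOTR-1 and ΔLOTUS against ΔTudor, and 0.703%, 0.22% and 0.395% higher. Without it these shares were 0.138%, 0.0565% and 0.1% lower and 0.0376%, 0.0376% and 0.0188% higher. In polysomes, in the same order, they were 0.345%, 0.13% and 0.241% lower and 0.137%, 0.078% and 0.065% higher with the block, and 0.111%, 0.0715% and 0.065% lower and 0.026%, 0.0325% and 0.0065% higher without it. Median log2 differences in lysates were -0.07 for ΔLOTUS and -0.07 for ΔTudor against ΔLOTR-1, and -0.00 for ΔLOTUS against ΔTudor. The domain deletions had lower estimates than the full deletion for 52 and 50 of 53 genes, but the difference passed the adjusted threshold for no single member.

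Levels also differed between replicate numbers, and several paralogs differed in direction. The split of numbers 1 and 2 from 3 and 4 was chosen after seeing the data, so the values are a description with no test. Ratios between paralogs are given only for how they moved between libraries, because counts were not scaled by transcript length and reads can be divided wrongly between similar sequences. In the wild type the ratio of the mean at numbers 3 and 4 to that at 1 and 2 had a median of 1.16 over the 53 genes in lysates. Over the 4 lysate groups, 38 genes were above 1 in every group, 10 below in every group and 5 mixed. The same was not counted over all genes, so these counts are not shown to be particular to the members.

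**Figure D5:**
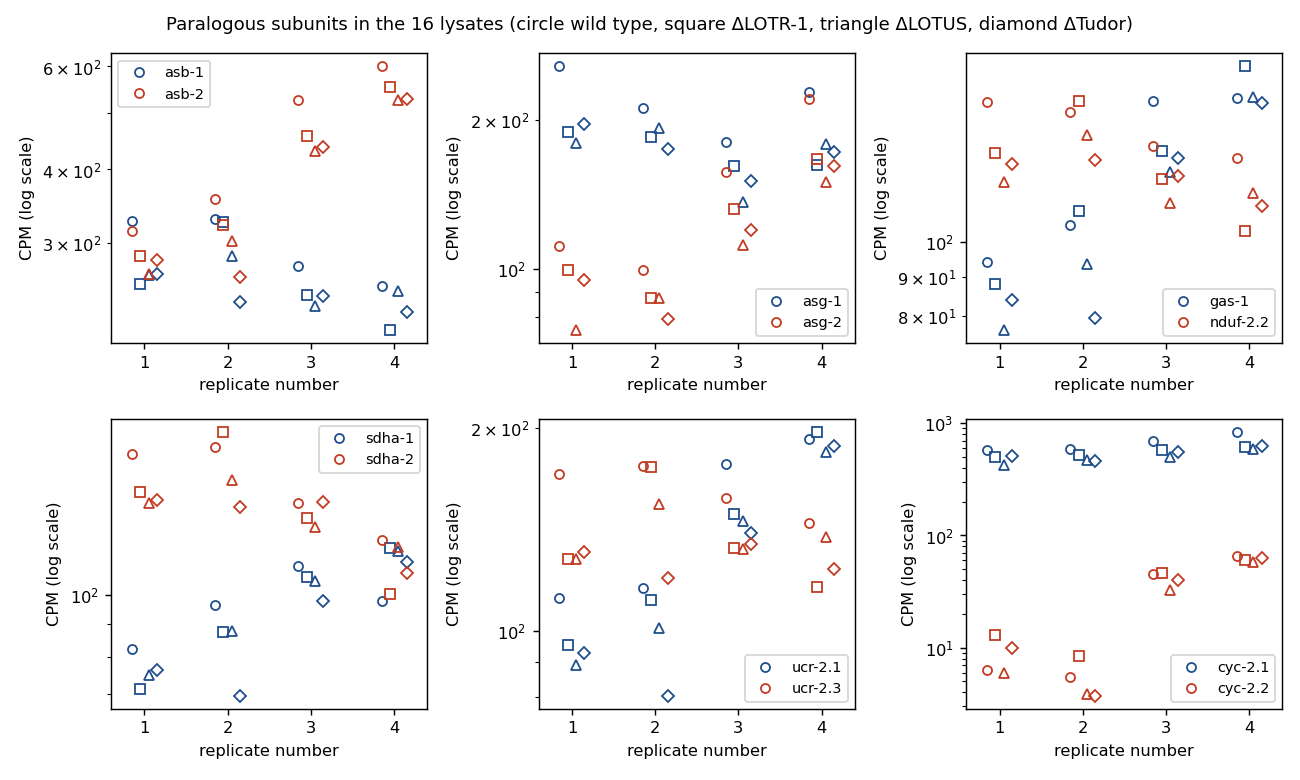
Levels of 6 paralog pairs (CPM, log scale) in the 16 lysates by replicate number, with symbols for strains. In 5 panels 1 gene of the pair, such as asb-2, is higher and the other, such as asb-1, lower or little changed at numbers 3 and 4; in the cyc-2 panel both are higher, and cyc-2.2 spans 3.74 to 65.3 CPM.

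In the ATP synthase, the germline b subunit gene asb-1 held 327, 329, 273 and 252 CPM in wild type lysates and its paralog asb-2 314, 357, 526 and 600.0 CPM. The asb-1 values were lower, and those of asb-2 higher, at numbers 3 and 4 than at 1 and 2. The ratio of asb-2 to asb-1 was 0.96 to 1.12 at numbers 1 and 2 and 1.79 to 2.6 at numbers 3 and 4 over the 16 lysates of all strains, with no overlap. In polysomes it was 0.958 to 1.29 at numbers 1 and 2 and 1.92 to 3.09 at numbers 3 and 4. The g subunit pair behaved likewise. For asg-1 the wild type lysates held 256, 211, 180.4 and 227 CPM, and for asg-2 112, 99.6, 157 and 220.0 CPM. The ratio of asg-2 to asg-1 was 0.421 to 0.528 at numbers 1 and 2 and 0.796 to 1.03 at numbers 3 and 4.

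In complexes I to III the same was measured for 3 further sets. Wild type lysates held 94.1, 105, 153 and 154 CPM of gas-1 and 152, 148, 134 and 129 CPM of nduf-2.2, which encode forms of the same iron-sulfur subunit. The ratio of nduf-2.2 to gas-1 was 1.39 to 1.62 at numbers 1 and 2 and 0.61 to 0.947 at numbers 3 and 4. For the flavoprotein of complex II, sdha-1 held 82.1, 96.4, 111 and 97.6 CPM and sdha-2 166, 169.9, 139 and 122 CPM. Here the ratio of sdha-2 to sdha-1 was 1.72 to 2.05 at numbers 1 and 2 and 0.847 to 1.43 at numbers 3 and 4. For the core protein of complex III, ucr-2.1 held 112, 116, 177 and 192 CPM, ucr-2.2 70.2, 80.3, 112 and 131 CPM and ucr-2.3 171, 176, 157 and 145 CPM. The ratio of ucr-2.3 to ucr-2.1 was 1.34 to 1.58 at numbers 1 and 2 and 0.59 to 0.965 at numbers 3 and 4, whereas that of ucr-2.2 to ucr-2.1 stayed within 0.594 to 0.694 in all 16. Every set but the last separated the numbers without overlap in lysates, in each of the 4 strains.

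The widest spread was in the cytochrome c gene cyc-2.2. Its wild type lysates held 6.33, 5.43, 45.1 and 65.3 CPM, ΔLOTR-1 13, 8.35, 46.1 and 59.9 CPM, ΔLOTUS 6.01, 3.88, 32.9 and 58 CPM and ΔTudor 9.9, 3.74, 40.1 and 63.5 CPM. All values at numbers 3 and 4 exceeded all values at 1 and 2 in each fraction, by 3.41-fold to 9.39-fold of the mean over the 8 groups of lysates and polysomes. For cyc-2.1 the same ratio was 1.02 to 1.38. Sperm markers, 32 of 35 of which averaged at least 1 CPM, moved by 3.12-fold to 7.61-fold over the same 8 groups. Hypodermis markers moved by 1.2-fold to 1.76-fold. Embryo markers, 2 of 6 of which averaged at least 1 CPM, stood at 0.0482 to 0.128 of their level at numbers 1 and 2. Oocyte markers stood at 0.169 to 0.372, germ line markers at 0.644 to 0.787, intestine markers at 0.216 to 0.681 and neuron markers at 0.798 to 0.948, and none of these lists had a gene at 0. Muscle markers ranged from 0.987 to 1.95. Their part in the paralog ratios was not tested.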

How the data were processed

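Per the labels' protocols, stranded libraries were made from poly(A) RNA of 16 lysates and their 16 polysome fractions. The authors deposited estimated counts per gene from Salmon, and a replicate-adjusted table of the same genes whose values are a score with no stated unit. The submitters' processing notes list Salmon and DESeq2 by name. For the versions, genome build and annotation, the sources used here give nothing. Of the positive estimated counts 15.3% were not whole, and all were rounded. Salmon divides reads between similar sequences, so paralog counts are less certain than others.

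Counts were analysed with edgeR 4.0.16 in R 4.3.3 (TMM scaling, filterByExpr, quasi-likelihood F test, Benjamini-Hochberg adjustment over all genes tested): 15939 genes in lysates, 15378 in polysomes and 16253 in fits over both fractions. SE is the log2 change divided by the square root of F. CPM uses TMM over all rows of all 32 libraries, the fits TMM over the genes tested. The planned fit had no replicate term. A fit with the replicate number (or the lysate, where fractions were compared) as a block was planned beside it. Fractions of 1 lysate are paired by design. Same-numbered libraries deviated together in all pairs (r at least 0.721 in polysomes and 0.814 in lysates). Counts of calls are therefore given with and without the block. Blocked values of single genes are given for only some of the members whose call the block changed. No libraries were duplicates: the lowest chi-square per degree of freedom over 48 pairs was 21.4. The labels call the replicates biological, and p-values measure the spread between these populations. DESeq2 1.42.0, and limma 3.58.1 on log2(score + 1) of the authors' replicate-adjusted table, were alternatives. The scripts were tested on simulated data.

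Genes are named if they are among the 2 with the highest mean CPM of their complex, called in a planned comparison, among the 3 smallest p-values of a comparison with the block, in a paralog set, or farthest from their complex's median ratio. Members and lists were chosen with earlier results of these data known, and several lists were taken from that earlier work. Coding lengths and sequences were not used here.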

Additional observations from a re-analysis of the deposited data

Results flagged for a closer look

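Within groups of 4 libraries, the highest or lowest value stood apart by Dixon's test in 5 of 208 sets of 4 values (2.4%), which covered 25 genes. Chance alone gives such a value in about 1 of 20 sets. The complex II flavoprotein gene sdha-2 was at 108 CPM in ΔTudor lysate 4, below the next value of 137 CPM. In ΔLOTUS polysome 3, the complex I gene nuo-1 was at 480 CPM (next 571 CPM) and the complex III gene ucr-1 at 454 CPM (next 551 CPM). In ΔLOTUS polysome 4 the complex III gene ucr-2.1 was at 256 CPM, above the next value of 168 CPM. In ΔTudor polysome 4 the complex II gene sdha-1 was at 80.6 CPM, below the next value of 115 CPM. Why these values stand apart was not tested.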

How the results depend on the processing

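In lysates the number of members called, 0 in each mutant in the planned fit, rose with the replicate block to 21, 41 and 40 in ΔLOTR-1, ΔLOTUS and ΔTudor. Blocked with RLE size factors it was 18, 33 and 34, blocked with DESeq2 22, 39 and 38, and blocked with library totals, added after seeing the data, 7, 27 and 17. DESeq2 without a block gave 1, 6 and 14, and limma on the authors' replicate-adjusted values gave 11 in ΔLOTUS, 2 in ΔTudor and 0 in ΔLOTR-1. Of all genes, the planned fit called 43, 23 and 12 in ΔLOTR-1, ΔLOTUS and ΔTudor and the replicate block 1246, 3277 and 2166. Blocked, RLE size factors gave 825, 2958 and 1723 of all genes, DESeq2 1505, 3173 and 2194 and library totals 1158, 3551 and 2589. DESeq2 without a block called 126, 183 and 136 of all genes and limma 299, 2001 and 839. Leaving out 1 replicate number with the block gave 0 to 18 members in ΔLOTR-1 (2 without number 4), 9 to 35 in ΔLOTUS and 0 to 37 in ΔTudor, and leaving out 1 library without it gave 0. In polysomes DESeq2 with the block called 4 members and 464 of all genes in ΔLOTUS. The block moved no count of members in the remaining comparisons by over 1.5 times. The cause of these differences was not tested.

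Summed polysome CPM with library totals was 24610 in the wild type and 24400 in ΔLOTR-1. With TMM over the genes tested, added after seeing the data, it was 29060 and 27400. In lysates the mean sums with library totals were 18110 CPM in the wild type and 17250, 16210 and 16530 CPM in ΔLOTR-1, ΔLOTUS and ΔTudor. At the default scaling they were 17680 CPM and 15700, 14940 and 14770 CPM. Among genes called in their strain's planned fit, the polysome to lysate ratio changed sign for 3. Of all 53 genes, 3 had a wild type ratio below 0 in the planned fit. There were 12 with library totals and 14 in the replicate-adjusted table. With library totals the log2 ratio of atp-2 was -0.00364 in the wild type and -0.02596 in ΔLOTR-1 (-0.01892 with the replicate block). In the replicate-adjusted table it was -0.13 in the wild type, -0.02362 in ΔLOTR-1 and -0.06493 in ΔTudor. There nuo-4 was at -0.007471 in the wild type, -0.0946 in ΔLOTUS and -0.06035 in ΔTudor, and ucr-1 at -0.02019 in ΔLOTUS. Leaving out 1 library, 33 to 36 members were called in the wild type, 35 to 38 in ΔLOTR-1, 34 to 35 in ΔLOTUS and 35 to 39 in ΔTudor. Single-gene values were followed for only some members in each comparison. Of these values, 3058 kept direction and call, 187 lost and 75 gained the call, and 10 changed sign.

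With 4 populations per group and no block, none of the lysate changes of the 53 genes passed the adjusted threshold in edgeR. DESeq2 without a block called 1, 6 and 14 of them in ΔLOTR-1, ΔLOTUS and ΔTudor, and 126, 183 and 136 of all genes.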
